A study of Mus musculus with 2 samples.

Results

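Genes that copy the DNA and genes that carry a cell through mitosis were compared between uterine stromal cells of floxed control mice and of mice labelled as a conditional knockout. The members were chosen by name and function, 15 of DNA replication and 23 of mitosis, and every probe set was taken whose annotation gives a member's symbol and no other. Of the 38 genes, 37 had such a probe set, Ccnb1 being the exception, and they were represented by 66 of the 20380 probe sets with 1 gene symbol. Tyms, the thymidylate synthase that makes a DNA precursor, was at the floor on both arrays at its 3 probe sets, and a further probe set shared with a pseudogene was not used. This left 36 of 8593 measured genes, 14 of replication and 22 of mitosis.

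Stromal cells were taken from pregnant mice on day 5, counted from the vaginal plug as day 1, by enzymatic digestion of the uterine horns. Cells of 3 animals were pooled per genotype, and 1 Affymetrix Mouse Genome 430A 2.0 array was run for each pool. The control is labelled Hif1 flox by its title and Hif2 alpha-intact by its genotype field, and the other pool is labelled Hif1 cKO and Hif2 alpha-null. The breeding note crosses Hif1 floxed mice with PRcre mice, in which Cre recombinase is made in cells that express the progesterone receptor, and names Rac1 as the gene ablated. Which gene was deleted is therefore not settled by the labels, and the second array is called knockout-labelled. With 1 pool on 1 array per group there is no replicate and no test, so every ratio describes these 2 arrays.

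Replication starts when origins are licensed by loading of the MCM helicase, a ring of the subunits Mcm2 to Mcm7. Cyclin E with its kinase then fires the origins, the ring moves with Cdc45 and the GINS complex, and the clamp Pcna holds the polymerases on the template. Mitosis is driven by Cdk1 with cyclins A and B and by the Polo and Aurora kinases, and it ends when the anaphase-promoting complex marks cyclin B and securin for destruction. Around an implanting embryo in the mouse, stromal cells proliferate before they decidualize, and many decidual cells go on copying their DNA without dividing and become polyploid.

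The promoters of both groups carry different sequence elements, and these are shown for members on which the results turn. RefSeq promoter windows, 250 bases before to 50 bases after a gene's start on GRCm38.p6, were found for 31 of the 38 genes. They were searched on both strands for the E2F site (TTTCCCGC, TTTCGCGC, TTTGCCGC or TTTGGCGC), the cell cycle gene homology region or CHR (TTTGAA or TTCGAA) and the CCAAT box (CCAAT). E2F sites are bound by the factors that switch on genes at the start of S phase, and CHR elements by the complexes that switch on genes late in the cycle. Capitals mark every match, and where 2 matches overlap they form 1 longer run in capitals. Mcm5 and Mcm6 stand for the replication genes with E2F sites, Plk1 and Ube2c for the mitosis genes with the lowest ratios on the knockout-labelled array, and Hmmr and Mki67 for those with the highest ratios measured on both arrays.
Mcm5 (chr8:75109259-75109558, plus strand): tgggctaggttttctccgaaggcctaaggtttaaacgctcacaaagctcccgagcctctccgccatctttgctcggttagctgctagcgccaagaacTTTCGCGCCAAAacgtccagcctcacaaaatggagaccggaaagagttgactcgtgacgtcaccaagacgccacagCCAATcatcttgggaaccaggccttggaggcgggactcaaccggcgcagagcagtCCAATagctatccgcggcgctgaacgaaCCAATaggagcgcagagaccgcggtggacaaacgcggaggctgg
Mcm6 (chr1:128359656-128359955, minus strand): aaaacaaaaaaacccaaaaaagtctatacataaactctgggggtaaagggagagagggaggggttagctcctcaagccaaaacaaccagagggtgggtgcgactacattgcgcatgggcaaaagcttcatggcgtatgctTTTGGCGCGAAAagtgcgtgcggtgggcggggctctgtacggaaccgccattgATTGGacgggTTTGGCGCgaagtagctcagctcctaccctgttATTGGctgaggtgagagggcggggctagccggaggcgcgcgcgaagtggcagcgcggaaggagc
Plk1 (chr7:122159185-122159484, plus strand): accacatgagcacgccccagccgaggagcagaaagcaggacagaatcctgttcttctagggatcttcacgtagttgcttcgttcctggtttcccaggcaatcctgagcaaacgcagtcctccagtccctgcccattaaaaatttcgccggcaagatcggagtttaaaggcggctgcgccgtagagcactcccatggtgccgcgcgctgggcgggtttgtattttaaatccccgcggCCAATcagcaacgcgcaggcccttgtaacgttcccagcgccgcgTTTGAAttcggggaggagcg
Ube2c (chr2:164769679-164769978, plus strand): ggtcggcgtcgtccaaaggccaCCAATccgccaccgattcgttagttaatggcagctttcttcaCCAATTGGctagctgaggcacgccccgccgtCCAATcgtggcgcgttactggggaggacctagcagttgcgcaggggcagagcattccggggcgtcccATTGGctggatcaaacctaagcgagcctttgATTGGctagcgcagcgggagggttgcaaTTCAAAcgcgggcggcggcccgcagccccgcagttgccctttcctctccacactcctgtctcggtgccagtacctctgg
Hmmr (chr11:40733388-40733687, minus strand): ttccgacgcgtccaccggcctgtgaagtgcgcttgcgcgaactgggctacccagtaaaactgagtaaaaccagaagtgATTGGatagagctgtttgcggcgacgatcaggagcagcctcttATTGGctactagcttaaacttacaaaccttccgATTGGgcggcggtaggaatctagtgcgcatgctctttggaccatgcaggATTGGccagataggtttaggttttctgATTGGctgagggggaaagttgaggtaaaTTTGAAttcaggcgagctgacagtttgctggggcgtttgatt
Mki67 (chr7:135716330-135716629, minus strand): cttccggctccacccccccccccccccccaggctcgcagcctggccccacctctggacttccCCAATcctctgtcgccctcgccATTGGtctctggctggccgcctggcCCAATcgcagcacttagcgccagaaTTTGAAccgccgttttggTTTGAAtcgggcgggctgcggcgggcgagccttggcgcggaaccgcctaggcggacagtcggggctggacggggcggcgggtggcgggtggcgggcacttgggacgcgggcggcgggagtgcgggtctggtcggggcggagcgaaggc

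An E2F site was found in 5 of 12 replication genes with a window, namely Cdc6, Mcm3, Mcm5, Mcm6 and Mcm7, and in 1 of 19 mitosis genes, Cdk1. The share was 4.88% over 6965 measured genes and 2.61% over all 27025 genes with a window. A CHR was found in 14 of 19 mitosis genes and in 3 of 12 replication genes, beside 16.4% of measured genes and 21.7% of all genes. All 14 of those mitosis genes also had a CCAAT box, a combination found in 7.90% of measured genes. The CCAAT box was present in 9 of 12 replication and 16 of 19 mitosis genes, and in 42.7% of measured genes. These are matches of letters and not measured binding, and no test was made.

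**Figure D1:**
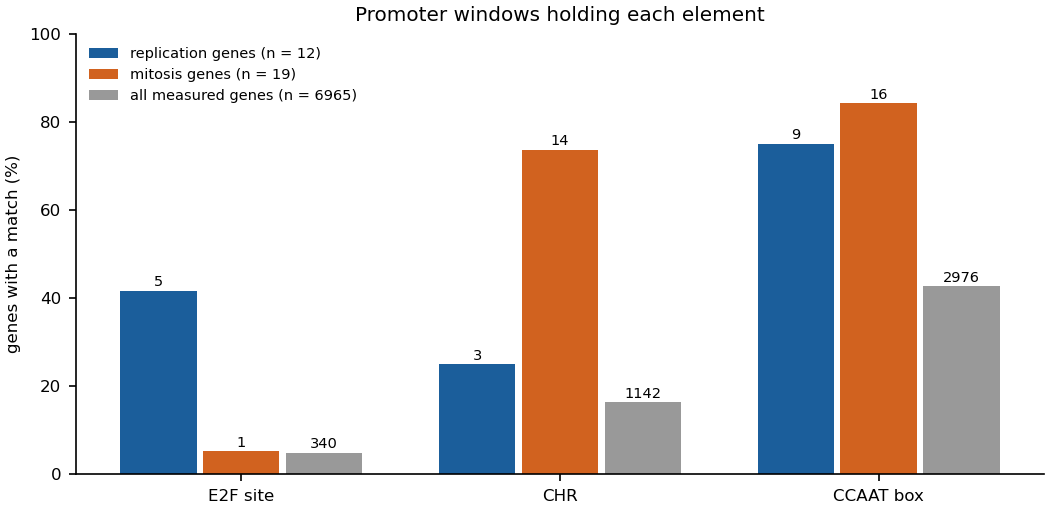
Share of genes, in percent, whose promoter window holds an E2F site, a CHR or a CCAAT box, for 12 replication genes, 19 mitosis genes and 6965 measured genes, with the number of genes above each bar. E2F sites stand out in the replication genes, 5 of 12, and the CHR in the mitosis genes, 14 of 19.

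Set beside the arrays, 7 of the 14 mitosis genes with a CHR had a lower and 7 a higher signal on the knockout-labelled array, each at its brightest probe set. This split is not firm. Of the lower genes, Aurka, Ccnb2, Cdk1 and Cenpa turned to log2 ratios of 0.02, 0.23, 0.14 and 0.27 when the arrays were scaled by median centring. Cdc20, counted as higher, was lower at its plain probe set (-1.02). Plk1 and Mki67 both carry a CHR and a CCAAT box and lay far apart. In the replication genes the direction beside an element depended on which probe set was read. Mcm7, with an E2F site and a CHR, and Mcm2, with a CHR, each had probe sets on both sides of 0. So did Rrm2, whose window held no match to the E2F words searched.

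Both arrays had a trimmed mean signal of 150.1, and 13828 probe sets of the control and 13423 of the knockout-labelled array lay above the floor of 19.7. The RNA differed at its 5' ends: the ratio of 3' to 5' signal was 2.27 and 16.0 for b-actin, and 1.49 and 7.25 for Gapdh. Markers of stroma were above the floor on at least 1 array for 12 of 12 genes, 1 of them at least 2-fold lower, with a summed signal of 30361 on the control and 42009 on the knockout-labelled array. Markers of other cells were also present, with summed signals of 2853 and 1356 for endothelium (8 of 8 genes measured, 5 at least 2-fold lower), 2356 and 1889 for epithelium (8 of 9, with Krt19 at the floor, 3 at least 2-fold lower), 2493 and 2846 for leukocytes (9 of 10, with Cd3e at the floor, 5 at least 2-fold lower and 3 higher), and 11568 and 13313 for smooth muscle and pericytes (7 of 7, 2 at least 2-fold lower). The median log2 ratio was -1.27 for leukocytes and -0.78 for smooth muscle and pericytes, although their summed signals were higher. The leukocyte sum includes C1qb at 337 and 1008, and another probe set of C1qb had a log2 ratio of -2.68. The part of RNA ends and of these other cells in the values that follow was not tested, and fewer dividing cells cannot be told apart from less RNA per cell.

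Over all 36 members, the knockout-labelled array gave a signal at least 2-fold lower for 7 and at least 2-fold higher for 4. Those shares of 19.4% and 11.1% compare with 13.0% and 6.21% of all 8593 measured genes. Each value comes from the gene's brightest probe set unless stated. The lower genes were Mcm5 and Pcna of replication and Plk1, Ube2c, Kif20a, Birc5 and Tpx2 of mitosis. The higher genes were Ccne2 of replication and Hmmr, Mki67 and Cenpe of mitosis. The error of a log2 ratio, taken from the disagreement of 2 probe sets of a gene, was an SD of 0.64 (2660 genes), and it leaves out the spread between animals and arrays. It also leaves out the mean gap between the 2 probe sets, and with that gap it was 0.70. As 1 SD it is a yardstick of size, and passing it does not clear a gene of measurement error. Probe sets of a member could lie further apart, as in Mcm7, from -1.57 to 0.95.

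**Figure D2:**
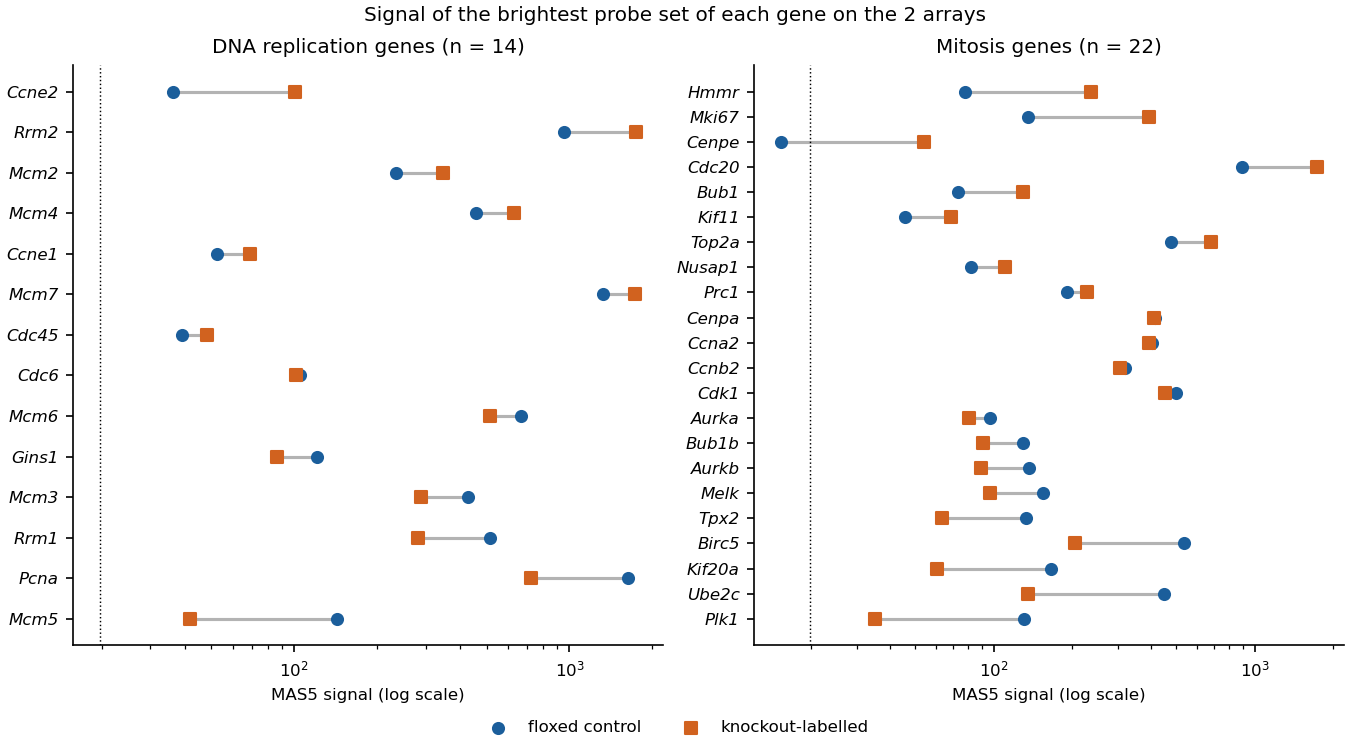
MAS5 signal on a log axis of the brightest probe set of 14 replication and 22 mitosis genes on the control array (circles) and the knockout-labelled array (squares), ordered by ratio, with the floor of 19.7 dotted. Mcm5 and Plk1 lie at the low end of their lists and Ccne2 and Hmmr at the high end, and Cenpe was below the floor on the control array.

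Replication genes were split in direction at their brightest probe sets. Of 14, 2 passed 2-fold downwards (14.3%) and 1 upwards (7.14%), shares near those of all genes, and 7 were lower and 7 higher by any amount. Their median log2 ratio, knockout-labelled minus control, was 0.13 (quartiles -0.55 and 0.44), where that of all genes was -0.10 (quartiles -0.62 and 0.42). Other scalings gave 0.18 (quantile), 0.41 (median centring) and 0.18 (loess) for the list, and 0.03, 0.16 and 0.01 for all genes. Median centring also turned the 2 lower and 1 higher genes into 1 and 2.

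The helicase and its loading factors held the lowest replication gene. Mcm5, a subunit of the ring, gave 143 on the control and 42.0 on the knockout-labelled one (log2 ratio -1.77) at its only probe set. It was 3.42-fold lower. This ratio was larger in size than the SD of 0.64 between probe sets, but with 1 probe set it could not be checked within the gene. The log2 ratio of Mcm5 was -1.11 with the floor raised to the 60th percentile, which lies above the dimmer signal. Cdc6, which loads the ring on origins, had signals of 105 and 102 and did not differ by more than that error. Gins1, a subunit of the GINS complex, was at 121 and 86.6 (log2 ratio -0.48), and Cdc45, its partner on the moving helicase, at 39.3 and 48.2 (0.30). Both of these ratios were smaller than the error.

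The other 5 subunits of the ring had several probe sets each, and in Mcm2, Mcm4, Mcm6 and Mcm7 these went in opposite directions within a gene. The brightest probe set of Mcm2 gave 235 and 349 (log2 ratio 0.57), and its other one 192 and 82.4 (-1.22). Mcm4 was at 459 and 627 at one (0.45) and at 626 and 364 at the other (-0.78). Mcm6 was at 668 and 514 (-0.38) and at 381 and 699 (0.88). In each of these 3 genes the probe set with the higher ratio had the suffix _s_at or _x_at, which Affymetrix gives to probe sets that can bind other transcripts too.

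Mcm7, another subunit, had its highest ratios at probe sets of that kind. Signals were 1327 and 1735 (0.39, _s_at), 255 and 491 (0.95, _x_at), 269 and 181 (-0.57, _s_at) and 251 and 84.5 (-1.57, _a_at, a suffix for several transcripts of the same gene). Mcm3 was lower at its 2 shared probe sets, with signals of 428 and 288 (-0.57) and 222 and 98.2 (-1.18), and lower still at a probe set with the plain suffix _at, with 124 and 41.0 (-1.60). A dim plain probe set of Mcm3 gave 35.0 and 38.4 (0.14), and 1 more was at the floor on both arrays. Thus Mcm7 was split, and Mcm3 was lower at 3 of 4 measured probe sets.

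Of the 3 measured genes of the clamp and nucleotide supply, 2 were lower at their brightest probe set, beside 4754 of all 8593 genes. Pcna alone passed 2-fold. Pcna, the sliding clamp, had signals of 1631 and 725 at its only probe set, a log2 ratio of -1.17 or 2.25-fold lower, and median centring left -0.89, short of 2-fold. Rrm1, the large subunit of ribonucleotide reductase, was at 513 and 283 (-0.86), with a dim probe set at 60.3 and 58.0 (-0.05). Rrm2, the small subunit that limits the enzyme in S phase, was split like Mcm2, Mcm4, Mcm6 and Mcm7. Its _x_at probe set was at 959 and 1747 (0.86), and its plain ones were at 461 and 310 (-0.57) and at 125 and 47.5 (-1.40).

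Of the E cyclins, which switch on the kinase of S phase entry, Ccne2 was higher and Ccne1 did not differ beyond the error. Ccne2 had signals of 36.4 and 101 (log2 ratio 1.47, 2.77-fold), and Ccne1 had 52.5 and 69.1 (0.40). Each rests on 1 plain probe set, and the control signal of Ccne2 was close to the floor. With the floor raised to the 60th percentile the ratio of Ccne2 became 0.60 or more and that of Ccne1 0.06 or more.

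**Figure D3:**
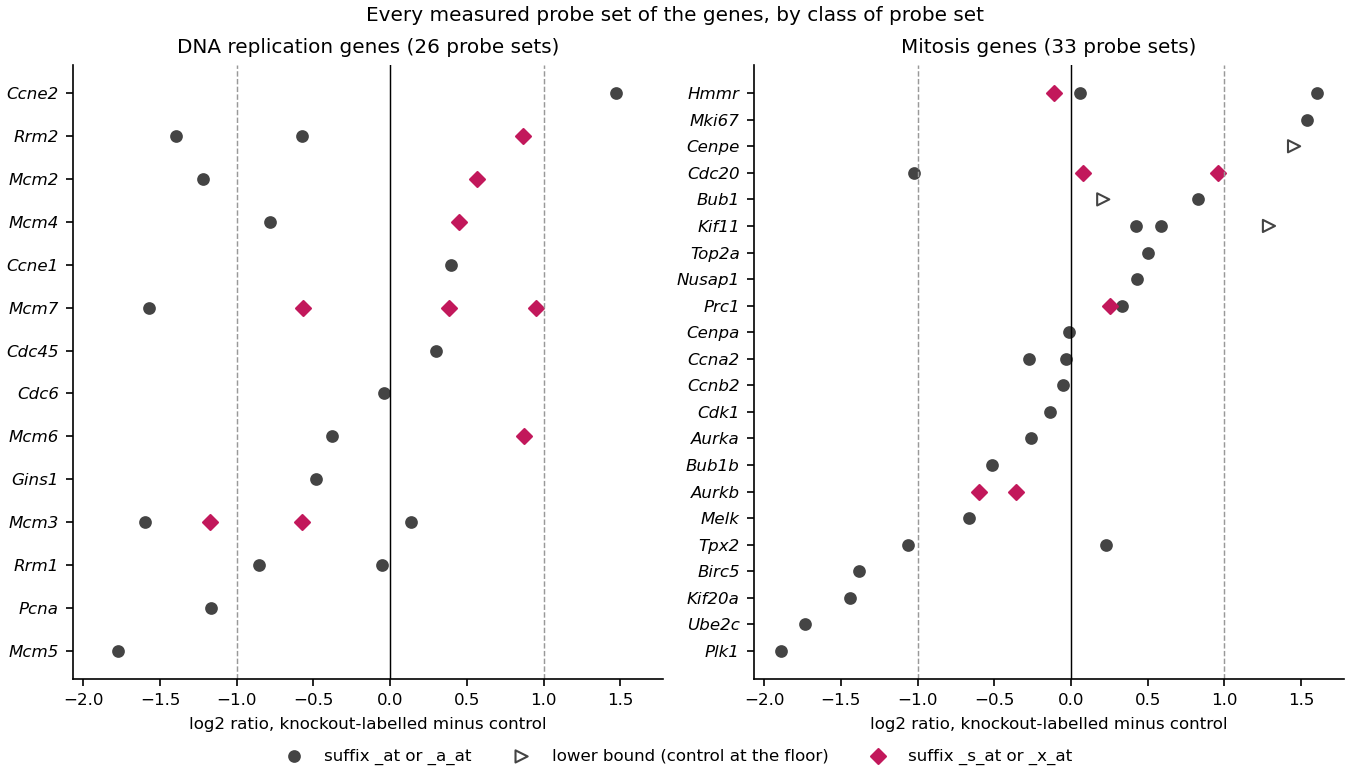
Log2 ratio, knockout-labelled minus control, of 26 measured probe sets of 14 replication genes and 33 of 22 mitosis genes, with probe sets of suffix _at or _a_at as circles, those of suffix _s_at or _x_at as diamonds, and lower bounds, where the control was at the floor, as open triangles. Dashed lines mark 2-fold. In Mcm2, Mcm4, Mcm6, Rrm2 and Cdc20 the highest ratio belongs to a diamond and the lowest to a circle, and in Hmmr the highest belongs to a circle.

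The direction of the replication genes differed with this class of probe set. Both kinds were measured for 9 members, and the brightest _s_at or _x_at probe set gave a higher ratio than the brightest other one in 7 of them, where 73.0% of 1248 genes on the arrays did so, a share close to that of the members. The median gap was 1.25 on the log2 scale in the 9 members and 0.56 over the 1248 genes. In 6 of the 9, Mcm2, Mcm4, Mcm6, Mcm7, Rrm2 and Cdc20, the shared probe set was above 0 and the other below 0, as in 39.3% of the 1248. Over the whole arrays, measured probe sets of suffix _x_at had a median log2 ratio of 0.48, those of _s_at 0.05, those of _at -0.15 and those of _a_at -0.24. The part of cross-binding and of RNA ends in this gap was not tested.

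Without _s_at and _x_at probe sets, replication genes lay lower. Of 14 genes, 11 were lower by any amount, beside 5004 of all 8275 genes. At least 2-fold lower were 5 (Mcm2, Mcm3, Mcm5, Mcm7 and Pcna), beside 15.4%, and 1 at least 2-fold higher (Ccne2), beside 5.57%. All 6 subunits of the ring were lower, from -1.77 for Mcm5 to -0.38 for Mcm6. The list's median became -0.68, and that of all genes -0.20. The 3 genes above 0 were Ccne1, Ccne2 and Cdc45. Counted by probe set, 13 of 17 with suffix _at or _a_at were lower, beside 6673 of all 11289. At least 2-fold lower were 6, beside 14.7%, and 1 was at least 2-fold higher, beside 6.48%. Several of these share a gene and are not independent.

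Mitosis genes spread widely around 0. Of 22, 5 passed 2-fold downwards (22.7%) and 3 upwards (13.6%), both above the 13.0% and 6.21% of all genes. The median log2 ratio was -0.04 (quartiles -0.65 and 0.57), and it turned to 0.01 after quantile normalization or removal of the loess trend and to 0.24 after median centring. The split of 5 lower and 3 higher became 4 and 4, 4 and 4, and 4 and 5 under these scalings. Without _s_at and _x_at probe sets the median was -0.05 and the split 6 and 3. In this list only Cdc20, Hmmr and Prc1 had probe sets of both kinds measured, so few values could change. Cdc20 went from 0.96 to -1.02, and Aurkb was left out.

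The engine of mitosis, Cdk1 and its cyclins, was nearly level, and all 3 measured genes turned slightly positive with median centring. Cdk1 had signals of 497 and 452 (log2 ratio -0.14), Ccna2, the cyclin of S phase and early mitosis, 403 and 395 (-0.03), and Ccnb2, a B cyclin, 317 and 306 (-0.05). The next probe set of Ccna2 gave 212 and 175 (-0.27). All 4 ratios were within the error of 0.64.

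The mitotic kinases and the passenger protein survivin had lower signals in 5 of 5 genes, beside 4754 of all 8593 genes, except that Aurka turned to 0.02 with median centring. The ratios of Aurka and Aurkb were within the error of 0.64. Plk1, the Polo kinase of mitotic entry and spindle assembly, had the lowest ratio of the 36 genes, with signals of 131 and 35.3 (log2 ratio -1.89, 3.71-fold lower), and a ratio of -0.98 with the floor at the 60th percentile, which lies above its dimmer signal. Birc5, which encodes survivin of the chromosomal passenger complex, was at 537 and 206 (-1.38, 2.61-fold lower). Aurkb, the kinase of that complex, was at 136 and 89.8 (-0.60), with 121 and 94.5 (-0.36) at its other probe set, and both of its probe sets are shared ones. Aurka, the Aurora kinase of spindle poles, was at 96.6 and 80.5 (-0.26), and Melk, a kinase made in dividing cells, at 154 and 97.1 (-0.67). Plk1 and Birc5 alone passed 2-fold, each at its only probe set.

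Genes of the spindle checkpoint and of protein destruction at anaphase went both ways. Ube2c, the conjugating enzyme of the anaphase-promoting complex, had signals of 449 and 135 (log2 ratio -1.73, 3.32-fold lower) at its only probe set. Cdc20, the activator of that complex, was at 890 and 1730 at its brightest probe set (0.96, _x_at), at 69.3 and 73.3 at another _x_at probe set (0.08) and at 233 and 115 at its plain one (-1.02). Its direction is not settled by these arrays. The checkpoint kinase Bub1 was at 73.3 and 130.0 (0.83) and its partner Bub1b at 130.1 and 91.2 (-0.51), on opposite sides of 0.

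Centromere and chromosome genes were level or higher. Cenpa, the histone variant that marks centromeres, was at 415 and 412 (log2 ratio -0.01). Cenpe, the kinesin that moves chromosomes at the kinetochore, was below the floor on the control array, at 15.4, and at 54.1 on the other, at least 2.74-fold higher. Mki67, the protein Ki-67 that coats mitotic chromosomes and marks cycling cells, had signals of 136 and 395 (1.54, 2.91-fold higher). Top2a, the topoisomerase that untangles sister chromatids, was at 480 and 680 (0.50), with a second probe set at the floor on both arrays. Mki67 and Plk1, both commonly read as signs of dividing cells, thus lay on opposite sides of 0, each at its only probe set. Both ratios were larger in size than the error of 0.64, which is 1 SD and leaves out the spread between animals and arrays.

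Genes of the spindle and its midzone also diverged. Hmmr, a protein of spindle microtubules, had the highest ratio of all members at its brightest probe set, with signals of 78.0 and 237 (log2 ratio 1.60, 3.04-fold higher). Its dimmer probe sets gave 25.1 and 26.2 (0.06) and 22.3 and 20.7 (-0.11), close to the floor, and 1 more was at the floor on both arrays. The median over its measured probe sets was 0.06, so its place rests on 1 probe set. Kif20a, the midzone kinesin of cell division, was at 166 and 61.0 (-1.44, 2.71-fold lower) at its only probe set. Tpx2, which activates Aurka on the spindle, was at 133 and 63.6 (-1.06), although its other probe set gave 81.1 and 95.1 (0.23), and its ratio was -0.85, -0.78 and -0.85, short of 2-fold, after quantile normalization, median centring and loess.

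Kif11, the motor that pushes spindle poles apart, gave a higher signal at each of 3 probe sets. Signals were 45.9 and 68.9 (log2 ratio 0.59), 28.5 and 38.2 (0.42), and 19.0 and 48.3, the last with the control at the floor and at least 2.45-fold higher. All of these signals were dim, and the ratios of 0.59 and 0.42 were within the error of 0.64. With the floor at the 60th percentile the ratio of Kif11 became 0.05 or more. Prc1, which bundles midzone microtubules, was slightly higher at both, with 191 and 228 (0.26) and 112 and 140.5 (0.33). Nusap1, a binder of spindle microtubules, was at 81.9 and 110.4 (0.43) with another probe set at the floor on both arrays. The second probe set of Bub1 had a control signal below the floor as well, with 11.6 and 22.8.

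The rest of the replication machinery resembled all genes in its shares. Of 49 further replication genes 44 were measured. In 6 the signal was at least 2-fold lower (13.6%) and in 3 at least 2-fold higher (6.82%). Their median was -0.13 and turned to 0.03, 0.15 and 0.01 after quantile normalization, median centring and removal of the loess trend. Pold4, a small subunit of DNA polymerase delta, was at 128 on the control array and below the floor on the other, at least 6.50-fold lower. Tk1, the thymidine kinase of S phase, was at 192 and 43.3 (-2.15), Pold2, another delta subunit, at 209 and 52.3 (-2.00), and Rfc3, a subunit of the clamp loader, at 83.5 and 27.7 (-1.59). Orc4 and Orc2, subunits of the origin recognition complex, were at 63.5 and 151 (1.25) and at 41.9 and 94.1 (1.17). Each had 3 measured probe sets, and the lowest ratio among them was 1.25 for Orc4 and 0.05 for Orc2. Fen1, the flap nuclease of Okazaki fragments, gave 1.04 at an _x_at probe set and -1.14 at its other.

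Further mitosis genes lay higher than all genes at their brightest probe sets. Of 50, 43 were measured, 28 were higher by any amount, beside 3839 of all 8593 genes, and 6 passed 2-fold upwards (14.0%, beside 6.21% of all genes) and 1 downwards (2.33%, beside 13.0%). Their median was 0.40. The highest were Ttk, the checkpoint kinase Mps1 (25.8 and 69.4, log2 ratio 1.43), Ncapg, a condensin subunit (33.3 and 83.7, 1.33), Ect2, the exchange factor that starts the cleavage furrow (77.2 and 192, 1.31), and Aspm, a protein of spindle poles (70.7 and 152, 1.10). The condensin subunits Smc4 (1.10, with 2.32 at another probe set) and Smc2 (1.07) followed. Racgap1, the partner of Ect2 at the midzone, was the gene at least 2-fold lower at its brightest probe set, at 135 and 65.4 (-1.04). Other probe sets of Pttg1 (-2.46), Incenp (-1.54), Anapc5 (-1.46), Cks1b (-1.45) and Kif22 (-1.40) were also at least 2-fold lower. The brightest probe sets of these genes gave 0.72, 0.90, 0.78, 0.40 and -0.06. The list's median was 0.07 without _s_at and _x_at probe sets and 0.15 with the median over a gene's probe sets, beside -0.20 and -0.17 for all genes.

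Regulators of both programmes showed no gene past 2-fold, where 13.0% of all genes were at least 2-fold lower and 6.21% higher. With 11 genes measured, this count does not set the list apart from all genes. Of 19 genes of the E2F family, the DREAM complex and FoxM1, 11 were measured, with a median log2 ratio of -0.30 and a range from -0.77 for E2f1, an activator of S phase genes, to 1.00 (just short of 2-fold) for Rb1, the pocket protein that restrains E2F. The median turned to 0.53 over the 7 genes left by a floor at the 60th percentile. Foxm1, the activator of late cell cycle genes, had signals of 28.3 and 20.5 (-0.46), within the error of 0.64. Lin9, a core subunit of DREAM, was at 24.8 and 49.2 (0.99), also just short of 2-fold. E2f1 had signals of 42.5 and 24.8. Thus E2f1, Foxm1 and Lin9 each had a signal near the floor of 19.7.

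**Figure D4:**
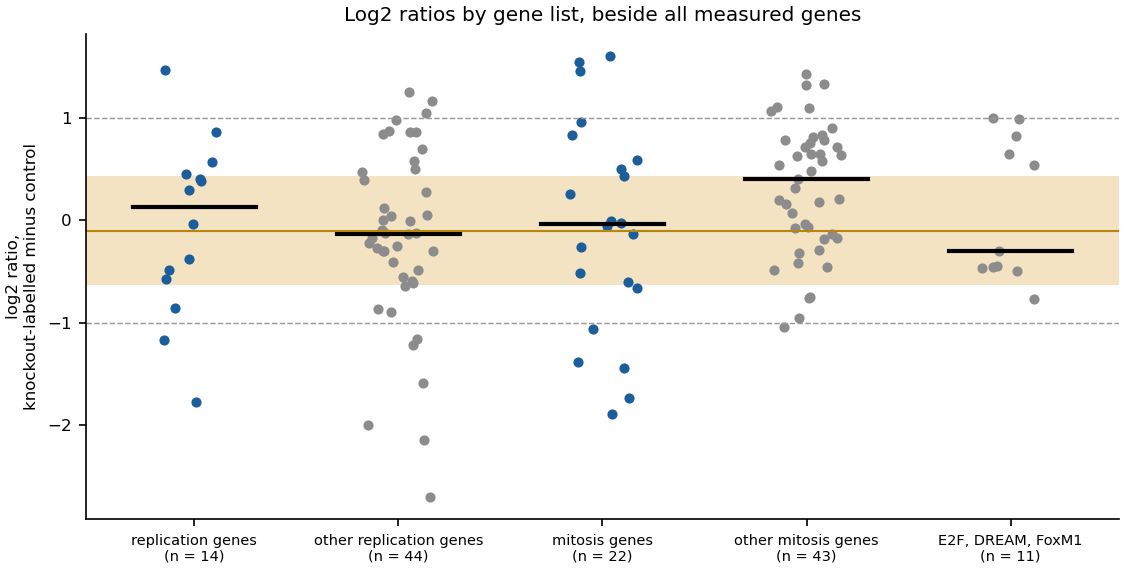
Log2 ratio, knockout-labelled minus control, of each measured gene at its brightest probe set, for 14 replication and 22 mitosis genes (dark points) and 44 further replication genes, 43 further mitosis genes and 11 regulators (grey points), with list medians as bars. The line and band give the median of -0.10 and the quartiles of all 8593 genes, and dashed lines mark 2-fold. The further mitosis genes lie highest, with a median of 0.40.

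Gene length on the genome went with the ratio no more closely in the members than elsewhere. Across the 36 members the Spearman correlation of log2 ratio with genomic span was 0.21, and across 8586 measured genes with a span it was 0.23. The genes share 2 arrays and are not independent replicates, so these values are descriptions.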

How the data were processed

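The deposited values are MAS5 signals, intensities on a linear scale, for which the authors used MAS5 and version 1 of Affymetrix Expression Console, per the submitters' processing notes. The scaling target and detection calls were not used here. Probe sets were named by the platform annotation, and symbols were updated by gene identifier in the RefSeq table of GRCm38.p6. Any signal under the 40th percentile of the pooled signals was set to that percentile, the floor. Signals were put on a log2 scale, and 1 probe set per gene, that with the highest mean, was kept. Genes at the floor on both arrays were left out, and a ratio with 1 array at the floor is a bound.

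Differences were described by size, at least 2-fold, because 1 array per group allows no test. The number of arrays limits the precision. Every member is accounted for, with both signals for those past 2-fold, and up to 4 further genes past 2-fold are given from each other list. More were chosen after their values were seen, namely Orc4, Orc2, Fen1, Smc2, Smc4, Racgap1, E2f1, Rb1, Foxm1 and Lin9. So were C1qb, Pttg1, Incenp, Anapc5, Cks1b and Kif22. Members, lists and motifs were chosen with earlier results of these data known. The size rule was tested on simulated data with changes larger than 2-fold, in genes well above the floor and with less noise than in these arrays. That checks the code and not how reliable the rule is here. Alternatives covered scaling, floor, pseudocount, choice of probe sets and size rule. Python 3.11.15 with pandas 2.3.3 was used.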

Additional observations from a re-analysis of the deposited data

How the results depend on the processing

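No paired analysis was possible because each group has 1 array. None of the 11 members past 2-fold changed sign under those of the 8 alternatives of scaling, floor, pseudocount and probe sets that measured them, and likewise 24 of all 36. For the 11 this says little, since they were picked for large ratios and a raised floor cannot reverse the sign of a probe set. Only Hmmr and Tpx2 among them had more than 1 measured probe set. With the median over probe sets, Hmmr fell to 0.06 and Tpx2 moved to -0.42. The floor at the 60th percentile left out Cdc45 and Cenpe, and the setting without _s_at and _x_at left out Aurkb. For the replication genes, the median of 0.13 became 0.41 with median centring, -0.24 with the median over probe sets, -0.68 without _s_at and _x_at probe sets, and -0.04 with the floor at the 60th percentile. Their 2 lower genes became 1 with median centring or a 3-fold rule and 5 without _s_at and _x_at. Their 1 higher gene became 2 with median centring or a 1.5-fold rule and 0 with the floor at the 60th percentile or a 3-fold rule. For the mitosis genes, the median became 0.24 and the 3 higher genes 5 with median centring. A 1.5-fold rule gave 6 higher, and a 3-fold rule 2 lower and 1 higher.

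Medians of the further lists moved as follows. Further replication genes went to 0.031 (quantile), 0.15 (median centring), 0.0099 (loess) and -0.26 (no _s_at or _x_at). Further mitosis genes went to 0.64 (median centring), 0.15 (median over probe sets) and 0.069 (no _s_at or _x_at). Regulators went to -0.021 (median centring), 0.53 (floor at the 60th percentile, 7 genes) and 0.12 (genes above the floor on both arrays, 10 genes). Over all genes, the 1119 lower became 668 and the 534 higher became 1154 with median centring, and 601 were lower with the floor at the 60th percentile. Rules of 1.5-fold and 3-fold gave 2268 and 330 lower, and 1592 and 106 higher. The cause of these shifts was not tested. The count of 7 members whose shared probe set had the higher ratio was 7 under each scaling and floor, a set of alternatives chosen after seeing the data. Signals near the floor limit the precision of Ccne2, Cenpe, Ttk, E2f1, Foxm1, Lin9 and the dim probe sets of Hmmr and Kif11.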
